A study of Bactrocera dorsalis with 3 samples.

Results

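Genes whose transcripts were low at 2-4 hours post-oviposition (hpo) and higher both before and after were examined in early embryogenesis of Bactrocera dorsalis, the oriental fruit fly, a pest of fruit crops. RNA-seq had been done on embryos of 3 ages, 0-1, 2-4 and 5-8 hpo, kept in RNAlater, with 1 library per age and no other treatment named. The sources used here do not give the strain, the number of embryos in a collection or the genome build. Each library pools all cells of the embryos, so fewer cells of a type and less RNA per cell cannot be told apart. A gene was taken as a trough gene when it carried a gene number, lay on a nuclear scaffold, spanned under 100000 bases and had FPKM + 1 at least 4-fold lower at 2-4 hpo than at 0-1 hpo and at least 4-fold higher at 5-8 hpo than at 2-4 hpo. FPKM is the number of fragments per kilobase of transcript, scaled to library size. The rule was met by 220 of 13489 genes, which are 3.74% of the 5883 numbered genes with enough signal at 0-1 and 5-8 hpo to have met both folds; the chaperone gene CH60, which has the same course, was set aside by the rule and is not counted. Because the genes were chosen by their FPKM in all 3 libraries, their courses are a description and carry no test, and with 1 library per age no difference has a replicate check.

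In insects, the first hours of development run on messenger RNA that the mother loaded into the egg. Over the maternal-to-zygotic transition much of this RNA is destroyed, and the embryo's own genome becomes active and takes over supply. Maternal messages can also be stored with short poly-A tails and lengthened later, as shown in Drosophila and in vertebrates, and selection on poly-T beads, which was used for these libraries, captures RNA through its tail. Tail length and RNA amount were not measured apart here.

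None of the 220 genes has an informative name in the reference gene table. The table lists 213 of them as protein-coding genes under a LOC symbol, and 7 are known by number only, so no function is given to any of them. Of the 76 genes in the whole data set that do have an informative name, 5 were at least 4-fold lower at 2-4 than at 0-1 hpo. At least 4-fold higher at 5-8 than at 2-4 hpo were 5, and CH60 was the 1 gene that met both. The shares over all genes tested were 8.28% lower and 13.8% higher, and nothing is read from these small counts. Of 23 gene lists covering early fly development and cell biology, 8 are defined by the wording of product names, which the table lacks, and could not be searched. Of the lists with symbols, 9 had no member found and 6 had 12 members found in all. None of these 12 is a trough gene. This was fixed in advance, because no trough gene has a name to match and the rule set CH60 aside. The lists therefore say nothing about the processes in the class. Of the 12, 3 (DNAJ1, CH60 and Rab40) were at least 4-fold lower at 2-4 than at 0-1 hpo. CH60 was also at least 4-fold higher at 5-8 than at 2-4 hpo. Among the listed genes, DNAJ1, a co-chaperone of the Hsp40 type, came close, with FPKM of 323 at 0-1 hpo, 25.1 at 2-4 hpo and 82.6 at 5-8 hpo. On FPKM + 1 it was 12.4-fold lower at 2-4 than at 0-1 hpo but only 3.20-fold higher at 5-8 than at 2-4 hpo. Rab40, of the Rab family of small GTPases, stood at 125, 24.3 and 53.5 at the same ages, and Akt1, a protein kinase of insulin signalling, at 109, 47.7 and 146. Both were lowest at 2-4 hpo, and so was Rab5b, an early endosome GTPase named after its values were seen, at 70.1, 26.1 and 99.4. DNJC8, also of the Hsp40 type and likewise named after its values were seen, differed less, at 46.0, 35.5 and 39.6. By contrast, DJB12, a further Hsp40-type protein gene (152, 155 and 191), Rab1a, a GTPase of transport between endoplasmic reticulum and Golgi (187, 209 and 683), Rab7, a late endosome GTPase (122, 143 and 116), and tra-2, a splicing factor gene (97.1, 122 and 91.9), were not lowest at 2-4 hpo. The yolk protein gene VIT1, a product of maternal tissue, had FPKM of 1.58, 3.02 and 1.13, and the opsin gene Rh1 was listed at 0 in all 3 libraries.

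The median trough gene had FPKM of 33.8 at 0-1 hpo, 4.69 at 2-4 hpo and 42.0 at 5-8 hpo. Quartiles were 21.9 and 70.3 at 0-1 hpo, 2.62 and 9.21 at 2-4 hpo, and 23.6 and 80.2 at 5-8 hpo. The first and last ages thus had similar spreads. The upper quartile of the middle age lay below the lower quartile of each, which the rule fixes given the quartiles of those ages. By comparison, the 5663 other numbered genes that could have met both folds (FPKM of 3 or more at 0-1 and at 5-8 hpo, span under 100000 bases) had medians of 38.8, 30.7 and 29.0.

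**Figure D1:**
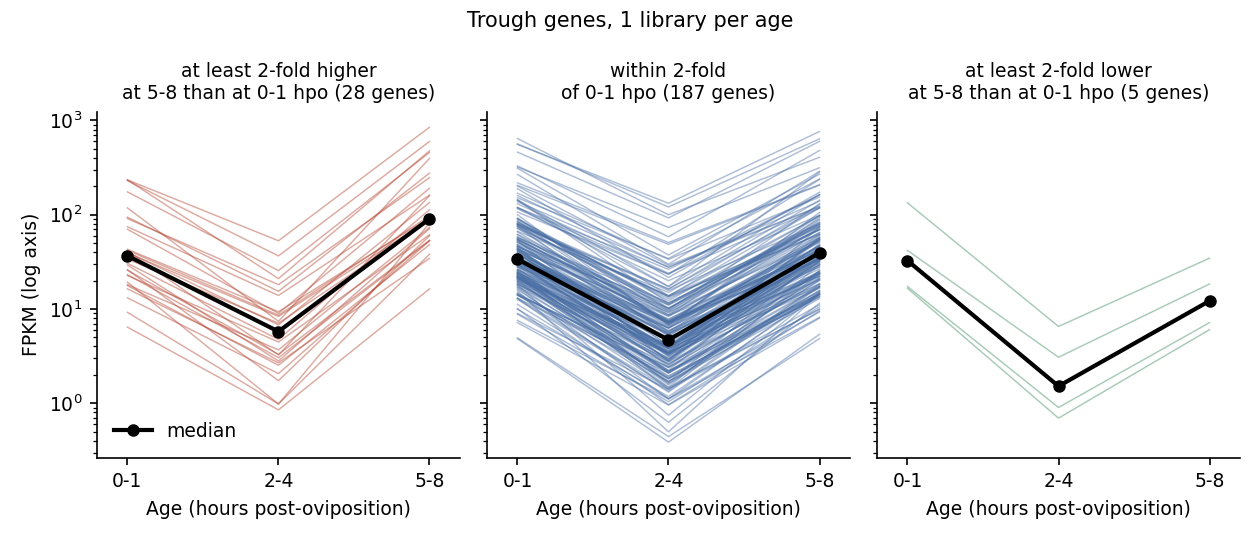
FPKM on a log axis against age for each of the 220 trough genes (thin lines, 1 library per age) with the median (black), split by the level at 5-8 against 0-1 hpo on FPKM + 1. At 5-8 hpo, 28 genes were 2-fold or more above their level at 0-1 hpo, 187 were within 2-fold of it and 5 were 2-fold or more below it.

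Every one of the 220 genes still had reads assigned to it at 2-4 hpo, from 16 to 30924 with a median of 565, and 17 genes had under 100. Reads from the younger and older embryos of that collection cannot be told apart. The same holds for reads from overlapping models. At 2-4 hpo 12 genes were below FPKM 1, 157 were between 1 and 10, and 51 were at 10 or more. At both 0-1 and 5-8 hpo, 9 genes were between 1 and 10 and 211 were at 10 or more, with 31 at 100 or more at 0-1 hpo and 40 at 5-8 hpo. Together the 220 genes took 2.57% of the 68140879 reads assigned to genes at 0-1 hpo, 0.410% of 65069185 at 2-4 hpo and 3.28% of 74817640 at 5-8 hpo. Exact binomial intervals of these shares (95%) were 2.56 to 2.57%, 0.409 to 0.412% and 3.27 to 3.28%, and like all intervals here they cover counting error only. The 10 genes with the most reads held 31.0%, 37.3% and 32.7% of the trough genes' reads at the 3 ages.

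Over all genes tested, 8.28% were at least 4-fold lower at 2-4 than at 0-1 hpo, and 13.8% were at least 4-fold higher at 5-8 than at 2-4 hpo; the rule set both to every trough gene, so nothing is read from these shares. Both comparisons share the 2-4 hpo library. Ratios of FPKM without the pseudocount were 7.12-fold lower at 2-4 than at 0-1 hpo in the median trough gene (quartiles, 5.67 to 9.78), and 8.20-fold higher at 5-8 than at 2-4 hpo (6.11 to 12.3). On FPKM + 1 the medians were 5.82 and 6.76. As log2 ratios of FPKM, the trough medians were -2.83 and 3.04, against -0.23 and -0.07 over the 6563 genes with FPKM of 1 or more in all libraries. The later difference was the larger one in 132 genes and the earlier one in 88. On FPKM + 1, at least 8-fold was reached by 44 genes into 2-4 hpo, by 79 out of it and by 26 on both sides. The lower bound of the 95% exact interval of the FPKM ratio was at least 4 on both sides in 219 genes. The exception was LOC105224844, at FPKM 217, 50.6 and 208, whose later ratio of 4.11 had an interval of 3.93 to 4.31.

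**Figure D2:**
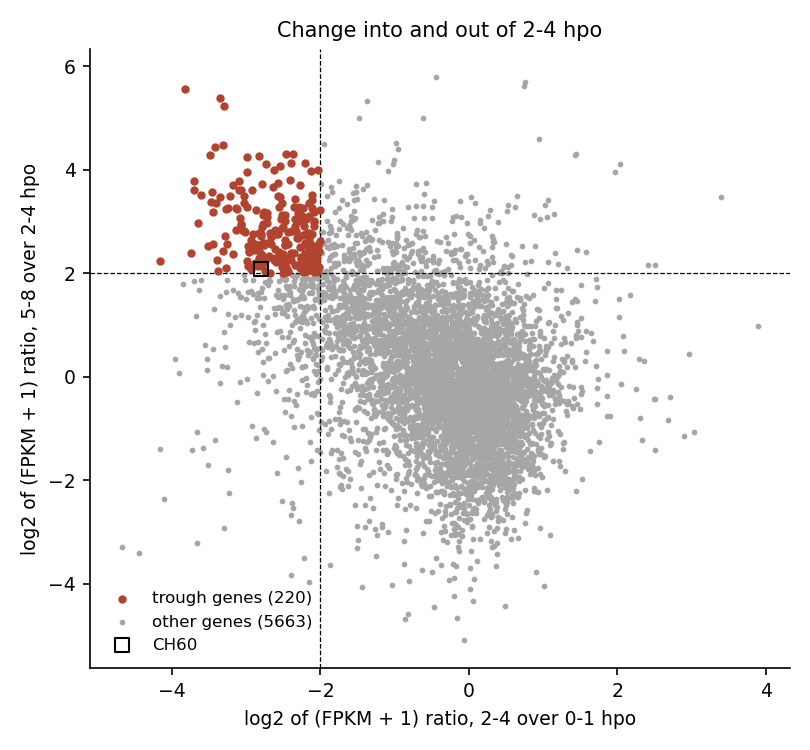
Log2 ratio of FPKM + 1 at 2-4 over 0-1 hpo (horizontal) against 5-8 over 2-4 hpo (vertical) for the 220 trough genes (red) and the 5663 other genes that could have met both folds (grey), with CH60 (square) and dashed lines at 4-fold. The axes share the 2-4 hpo library, so part of the downward slope is built in; the trough genes are the upper left corner by rule and pass into the rest of the genes without a gap.

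The class has no sharp edge. Just inside the 4-fold rule at 2-4 against 0-1 hpo were LOC105230048 (4.01-fold on FPKM + 1), LOC105222115 (4.02-fold) and LOC105229129 (4.06-fold), and just outside were LOC105225927 and LOC105222870 (both 3.99-fold) and LOC105230220 (3.98-fold). At 5-8 against 2-4 hpo, LOC105228970 (4.03-fold), LOC105226434 (4.04-fold) and LOC105224844 (4.05-fold) were just inside, and LOC105222181 (3.98-fold), LOC105227834 (3.95-fold) and LOC105226793 (3.90-fold) just outside. Genes lowest at 2-4 hpo outnumbered those highest there at each fold examined. At 2-fold there were 815 lower against 63 higher genes, at 3-fold 389 against 20, at 4-fold 220 against 11, at 6-fold 63 against 9 and at 10-fold 11 against 7. Under other scalings the 4-fold counts were 254 against 16 on the TPM scale (FPKM rescaled to a fixed sum) and 178 against 13 after median-of-ratios scaling, which centres the libraries on their typical gene. Adding 0.1 in place of 1 to FPKM gave 299 against 37, and adding 5 gave 76 against 7. All of these counts, at every fold and scaling, rest on the same single 2-4 hpo library. A property of that library cannot be told apart from the age.

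**Figure D3:**
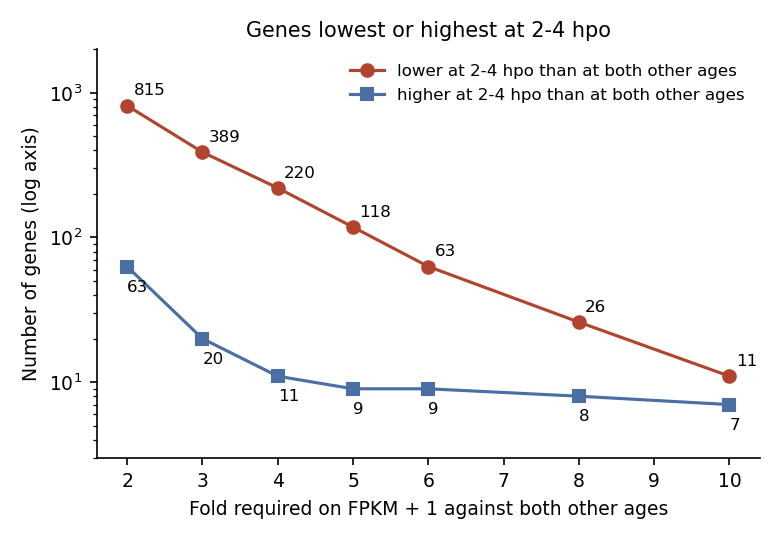
Number of numbered genes (log axis) lower at 2-4 hpo than at both other ages (red circles) or higher than at both (blue squares) against the fold required on FPKM + 1. Lower genes exceed higher ones at every fold drawn, by 220 to 11 at 4-fold and by 11 to 7 at 10-fold. All counts rest on the single 2-4 hpo library.

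Ranks within a library do not depend on how libraries are scaled to each other, but the choice of the 220 genes does. The rule used the same FPKM values, so the low ranks at 2-4 hpo follow in large part from it. They are given as a description. Among the 5883 genes that could have met both folds, the median trough gene stood at percentile 43.9 of FPKM at 0-1 hpo, 8.13 at 2-4 hpo and 62.5 at 5-8 hpo. At 2-4 hpo 180 of the 220 were below percentile 25 and 14 were above percentile 50. At 0-1 hpo the counts were 54 and 101, and at 5-8 hpo they were 18 and 150. The trough genes thus ranked near the middle in the youngest embryos, low at 2-4 hpo and mostly above the middle at 5-8 hpo. Within the 220 genes, Spearman's rho of FPKM was 0.917 between 0-1 and 2-4 hpo, 0.847 between 2-4 and 5-8 hpo and 0.834 between 0-1 and 5-8 hpo. These are correlations across genes, which share libraries and lengths, and a part of them is fixed by the rule.

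**Figure D4:**
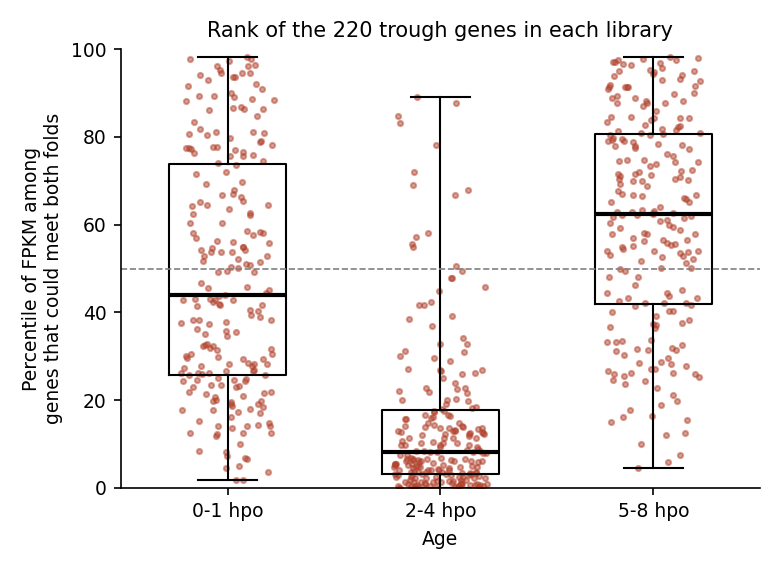
Percentile of FPKM in each library for the 220 trough genes among the 5883 genes that could have met both folds (points are genes, boxes the interquartile range, thick lines the median, whiskers the full range, dashed line the 50th percentile). In order of age, the medians are percentiles 43.9, 8.13 and 62.5.

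The genes with the largest differences between 0-1 and 2-4 hpo differed in how far they came back. FPKM values of a gene are given below in order of age. LOC105230470 had FPKM of 134, 6.52 and 34.6, from 12365, 576 and 3512 reads. It was 20.5-fold lower at 2-4 than at 0-1 hpo (95% interval 18.9 to 22.3), the largest difference of the class on FPKM + 1, and 5.30-fold higher at 5-8 than at 2-4 hpo (4.85 to 5.80); its ratio of 5-8 over 0-1 hpo was 0.259. The gene lies on NW_011876389.1, minus strand, 2912427 to 2913890, in the coordinates of the deposited tables. LOC105231847 followed a like course at a lower level, with FPKM of 32.6, 1.52 and 12.2, and was 21.5-fold lower at 2-4 than at 0-1 hpo (18.1 to 25.6).

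Of the other genes with large first differences, LOC105231586, LOC105231603 and LOC105224289 had similar levels at 5-8 and 0-1 hpo. LOC105231586 had FPKM of 52.8, 3.12 and 48.9, and LOC105231603 had 44.8, 2.77 and 41.9; both lie on scaffold NW_011876396.1. At 2-4 against 0-1 hpo they were 16.9-fold (15.2 to 18.9) and 16.2-fold (15.1 to 17.3) lower, and their ratios of 5-8 over 0-1 hpo were 0.928 and 0.935. LOC105224289, a single-exon model on NW_011876301.1, minus strand, 1004727 to 1005948, had 99.9, 6.74 and 106, with a ratio of 5-8 over 0-1 hpo of 1.06 (1.03 to 1.09). LOC105231986 stood at 76.3, 5.15 and 47.5 and LOC105229078 at 142, 11.6 and 71.0, both lower at 5-8 than at 0-1 hpo, with ratios of 0.622 and 0.498. LOC105232681, chosen after its values were seen, had the fewest reads at 2-4 hpo, with 524, 16 and 541 reads and FPKM of 15.5, 0.497 and 14.6. It was 31.3-fold lower at 2-4 than at 0-1 hpo without the pseudocount, with a wide interval of 19.1 to 55.1.

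The genes with the largest increases out of the minimum were all higher at 5-8 than at 0-1 hpo. LOC105226454, a short model of 583 exonic bases on NW_011876344.1, plus strand, 520065 to 520705, had FPKM of 118, 7.38 and 395 from 4688, 280 and 17229 reads. It was 16.0-fold lower at 2-4 than at 0-1 hpo (14.2 to 18.1) and 53.5-fold higher at 5-8 than at 2-4 hpo (47.6 to 60.4). On FPKM + 1 it ranked 2 in the class on the first side and 1 on the second. LOC109579824 had FPKM of 19.2, 0.982 and 81.4, and was 82.9-fold higher at 5-8 than at 2-4 hpo (69.7 to 99.5). The value at 5-8 hpo was the highest of the 3 in each of these genes.

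LOC105230049, which spans 50564 bases for 2362 exonic bases, was measured at FPKM 41.0, 3.25 and 159, and was 48.8-fold higher at 5-8 than at 2-4 hpo (44.7 to 53.4). It was the longest model of the class. LOC105226074 was at 9.21, 0.982 and 38.0, LOC105227985 at 26.1, 1.74 and 59.7, LOC105224741 at 30.6, 4.75 and 113, and LOC105231897 at 42.2, 2.85 and 74.3. All of these passed their level at 0-1 hpo, with ratios of 5-8 over 0-1 hpo of 4.12, 2.29, 3.70 and 1.76.

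Of the 8 most abundant trough genes, all but LOC105222184, described below, differed between 2-4 and 0-1 hpo by less than the class median of 7.12-fold. LOC105228084, on NW_011876367.1, plus strand, 932005 to 941435, had FPKM of 555, 132 and 763 from 135851, 30924 and 205156 reads, the highest mean of the class. It was 4.20-fold lower at 2-4 than at 0-1 hpo (4.14 to 4.25) and 5.77-fold higher at 5-8 than at 2-4 hpo (5.70 to 5.84). LOC105224690 stood at 563, 121 and 637, LOC105229475 at 461, 92.4 and 599, and LOC105225314 at 329, 58.4 and 479. Each of these 4 genes was moderately higher at 5-8 than at 0-1 hpo, by 1.38-fold, 1.13-fold, 1.30-fold and 1.46-fold.

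LOC105226434 was the exception among the abundant genes, at FPKM 642, 99.9 and 406, lower at 5-8 than at 0-1 hpo by a ratio of 0.633 (0.627 to 0.638). LOC105222014 reached the highest FPKM of any trough gene, with 234, 52.9 and 846, and LOC105223856 had 230, 36.5 and 597. Both were far above their first level, with ratios of 5-8 over 0-1 hpo of 3.62 (3.56 to 3.68) and 2.60 (2.57 to 2.64). The abundant genes thus differed in their ratio of 5-8 over 0-1 hpo by more than counting error. Differences between replicate libraries could not be measured. After median-of-ratios scaling the smaller of the folds on FPKM + 1 was under 4 in 3 of the 8 most abundant genes, at 3.62 in LOC105228084, 3.79 in LOC105222014 and 3.94 in LOC105226434, and on the TPM scale it was 3.93 in LOC105226434.

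Most trough genes ended near where they began. Of the 220, 187 (85.0%) had FPKM + 1 at 5-8 hpo within 2-fold of that at 0-1 hpo, 28 (12.7%) were 2-fold or more above it and 5 (2.27%) were 2-fold or more below it. Over all genes tested these shares were 49%, 23.8% and 27.2%. The rule bounds both ages from below, so it shapes this distribution and the difference is given as a description. The median ratio of 5-8 over 0-1 hpo was 1.09 (quartiles, 0.866 to 1.56), and the values ran from 0.259 in LOC105230470 to 4.23 in LOC109579824. As a log2 ratio the median was 0.13, against -0.37 for the same 6563 genes. It was -0.01 on the TPM scale and 0.30 after median-of-ratios scaling, so its sign depended on the scaling.

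The 5 genes that stayed at least 2-fold below their first level were LOC105230470, LOC105231847, LOC105226391, LOC105227991 and LOC105232381. The first pair is described above. LOC105226391 had FPKM of 17.3, 0.902 and 7.16, LOC105227991 had 16.6, 0.696 and 6.03, and LOC105232381 had 41.8, 3.07 and 18.4. The 28 genes that passed 2-fold above it had medians of 36.6, 5.76 and 90.4, close to the other trough genes at the first 2 ages and higher at 5-8 hpo, the age by which they were split.

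Gene structure was not used by the rule apart from the limit on span. Trough genes had a median span of 2202 bases (quartiles, 1343 to 4881), against 2813 (1527 to 7036) for the 5663 other genes that could have met both folds. Their median listed exonic length was 1693 bases against 1949. Single-exon models, whose exonic length equals the span, numbered 13 of 220 (5.91%) against 404 of 5663 (7.13%). The plus strand held 102 of the 220 (46.4%) against 49.1% of the others. Because genes are not replicates of a condition, no test was made, and no feature of structure is called particular to the class.

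The share of trough genes was lowest among the largest models. It was 4.82% of genes spanning under 1000 bases, 4.46% at 1000 to 2000, 4.13% at 2000 to 3000, 3.40% at 3000 to 5000, 2.53% at 5000 to 10000, 3.76% at 10000 to 20000 and 2.23% at 20000 or more. Only 6 of 553 genes with an exonic length of 5000 or more were trough genes (1.08%), against 55 of 1081 (5.09%) at 1000 to 1500. By level at 0-1 hpo the share was 1.85% at FPKM 3 to 10, where the rule leaves little room for a 4-fold difference on FPKM + 1. It was 4.81% at 10 to 30, 3.56% at 30 to 100, 3.30% at 100 to 300 and 2.89% above 300.

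**Figure D5:**
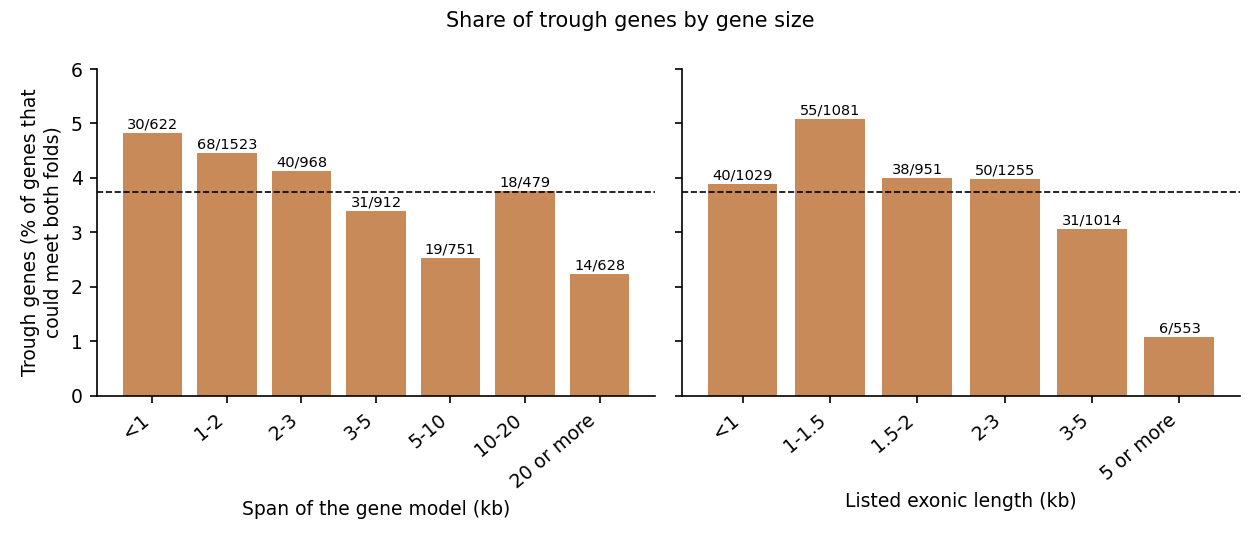
Trough genes as a percentage of the genes that could have met both folds, by span (left) and listed exonic length (right), with the counts above each bar and the share over all 5883 genes, 3.74%, as a dashed line. The share is 4.82% for spans under 1 kb and 2.23% from 20 kb, and 1.08% for exonic lengths from 5 kb.

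Genes that were at least 4-fold lower at 2-4 than at 0-1 hpo and did not meet the later fold had larger median spans. The 223 genes less than 2-fold higher at 5-8 than at 2-4 hpo had a median span of 3444 bases, and the 150 with 2-fold to 4-fold had 2739, against 2202 for the trough genes. Exonic length differed less, with medians of 1693 in trough genes, 2009 in partly returning genes and 1879 in genes that stayed low. The exons of the median trough gene filled 82.1% of its span, those of partly returning genes 79.8% and those of genes that stayed low 67.8%. Spans of 20000 bases or more were found in 14 of 220 trough genes (6.36%), 11 of 150 partly returning genes (7.33%) and 38 of 223 that stayed low (17.0%). Exonic lengths of 5000 bases or more were found in 6 (2.73%), 3 (2%) and 20 (8.97%) of these sets, against 9.66% of the 5663 other genes. The low share of long exonic models was thus not particular to trough genes, as partly returning genes had it too. The 3 sets had median FPKM at 0-1 hpo of 33.8, 34.5 and 46.1. The part of that difference in level was not tested.

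Trough genes lay on 123 scaffolds, 73 of which held 1 each. The scaffold with the most, NW_011876396.1, held 8 of its 100 genes that could have met both folds. That is 8%, against 3.74% of all 5883 such genes. Grouping along scaffolds beyond the nearest models was not examined. Of the 336 detected models next to a trough gene, 29 (8.63%) were at least 4-fold lower at 2-4 than at 0-1 hpo and 46 (13.7%) at least 4-fold higher at 5-8 than at 2-4 hpo. Next to the other genes the shares were 7.91% and 11.3%. Trough genes themselves were 10 of these 336 neighbours (2.98%), against 260 (3.00%) next to the other genes. The neighbours had median FPKM of 31.0, 20.4 and 24.3 at the 3 ages, against 30.3, 21.6 and 22.7 next to the other genes. Their levels at 2-4 hpo thus lay far above the 4.69 of the trough genes themselves.

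Pairs of trough genes that followed each other by start position numbered 5, and 3 of these pairs pointed towards each other. On NW_011876357.1, LOC105227354 (plus, 634247 to 636037) and LOC105227353 (minus, 635960 to 638294) overlapped by 78 bases, with FPKM of 21.5, 1.56 and 23.4 in the first and 45.6, 5.60 and 31.5 in the second. On NW_011876387.1, LOC105230190 (plus, 3054157 to 3056176) and LOC105230189 (minus, 3055977 to 3059805) overlapped by 200 bases. They differed at 5-8 hpo, with 14.6, 1.92 and 13.6 in LOC105230190 and 17.7, 2.53 and 48.0 in LOC105230189. The third facing pair, LOC105231735 (58.6, 9.47 and 90.0) and LOC105231736 (29.7, 4.05 and 22.4), was separated by 126 bases.

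Nothing in the sources used here says whether reads were counted by strand, so reads in the overlapping ends cannot be assigned to 1 gene of a pair. Over the class, 74 of the 220 models (33.6%) overlapped another model, against 27.9% of the other genes. Of the 74, 68 overlapped a model on the opposite strand, 30.9% of the class against 23.6% of the other genes. These differences were not tested. Leaving out every overlapping model left 146 trough genes. A further overlap joined trough genes with another model starting between them. On NW_011876378.1, LOC105229127 (plus, 1280363 to 1282710) lay wholly inside the span of LOC105229129 (plus, 1277829 to 1284026), with FPKM of 20.6, 2.41 and 21.2 in LOC105229127 and 7.56, 1.11 and 8.15 in LOC105229129. Reads shared by this pair, on the same strand, cannot be assigned to either gene where exons overlap, and exon positions were not analysed here. The remaining adjacent pairs lay in tandem. LOC105227547 and LOC105227550 on NW_011876359.1 (plus strand, 1119 bases apart) had FPKM of 33.1, 6.46 and 60.7 and of 74.5, 13.9 and 161. LOC105224689 and LOC105224690 on NW_011876312.1 (minus strand, 1310 bases apart) had 22.2, 3.58 and 36.8 in the first and the values given above in the second.

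A further trough gene lay beside CH60, the mitochondrial Hsp60 chaperonin gene that the rule set aside. LOC105222184, on NW_011876229.1, plus strand, 341386 to 344639, is the next model to CH60 (minus strand, ending at base 330740) in the deposited tables. The 2 genes point away from each other, with 10645 bases between them. LOC105222184 had FPKM of 234, 21.0 and 476 from 10380, 887 and 23137 reads, and CH60 had 257, 35.9 and 155 from 32094, 4286 and 21324 reads. Both were lowest at 2-4 hpo, but LOC105222184 passed its first level at 5-8 hpo, 2.03-fold (1.98 to 2.08), and CH60 did not reach it. LOC105222184 was 11.2-fold lower at 2-4 than at 0-1 hpo (10.4 to 12.0) and 22.7-fold higher at 5-8 than at 2-4 hpo (21.2 to 24.3). The models on their outer sides had no minimum, with FPKM of 47.4, 69.1 and 59.5 in LOC105222182 and 141, 221 and 227 in LOC105222185. This pair was noted after its values were seen.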

How the data were processed

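Messenger RNA selected on poly-T beads from embryos of 3 ages was sequenced on an Illumina instrument, per the labels' protocols. HISAT2 2.0.4 and HTSeq 0.9.1 are named in the submitters' processing notes; the sources used here do not give their settings, the annotation or the genome build. The authors deposited FPKM per gene and, in separate tables, read counts with positions and listed exonic lengths. The length behind the deposited FPKM differed by over 0.1% from the listed one for 46 trough genes (20.9%). This affects levels and folds on FPKM + 1, but not FPKM ratios between ages without the pseudocount. With FPKM recomputed from the listed lengths, 219 genes met the rule.

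Folds for the rule used FPKM + 1, which understates differences of low genes. Folds of single genes are FPKM ratios with exact conditional binomial intervals (95%) of the 2 deposited counts. Background shares cover genes that reached FPKM 1 in at least 1 of the libraries compared. Genes that could have met both folds had FPKM of 3 or more at 0-1 and 5-8 hpo and met the other conditions of the rule; this is narrower than the planned set, which had no limit at 5-8 hpo or on span. Names came from a RefSeq table of assembly ASM2337382v1, used for names, gene types and the gene order given under other observations. The table holds no sequence, so promoters and proteins were not analysed here.

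With 1 library per age no p-value was computed. The members and gene lists were chosen with earlier results of these data known. Named genes are the 8 largest differences on each side on FPKM + 1, the 8 highest mean FPKM, 3 genes on each side of the thresholds, adjacent trough genes and matched list members; others are said to have been chosen after their values were seen, and the 5 that stayed low are named as a count of 5. The procedure was run on simulated counts with planted minima and counting error only. These counts hold no biological variation between libraries, so the run says nothing about replicate error. Python 3.11.15, numpy 2.4.6, pandas 2.3.3, scipy 1.17.1 and matplotlib 3.10.9 were used.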

Additional observations from a re-analysis of the deposited data

How the results depend on the processing

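Of 61 values for 7 counts of genes under alternatives, 40 were within 1.5 times the reported count. The 4-fold rule gave 76 trough genes with a pseudocount of 5, 389 at 3-fold, 26 at 8-fold and, as an alternative chosen after seeing the data, 146 without overlapping models, all by construction. With a pseudocount of 5, 63 genes were within 2-fold at 5-8 against 0-1 hpo, 0 at least 2-fold lower, 13 at least 2-fold higher and 6 single-exon; at 3-fold these were 319, 22, 48 and 24, and at 8-fold 21, 0, 5 and 1. Adding 0.1 in place of 1 to FPKM gave 13 genes 2-fold or more lower and 43 higher, counts that by construction could not fall. The TPM scale gave 8 lower, and the cause of that was not tested. Over all genes, adding 5 gave 266 lower at 2-4 than at 0-1 hpo, where 605 were reported, and 539 higher at 5-8 than at 2-4 hpo, where 1121 were reported. All 178 genes called after median-of-ratios scaling are among the 220, as are 218 of the 254 on the TPM scale. Of 36 trough genes named by the rule, 27 remained past 4-fold after median-of-ratios scaling, 34 on the TPM scale and 20 with a pseudocount of 5. Of the 220, 73 met the rule under every scale and pseudocount tried. No paired analysis was possible because there was a single library for every age, which also leaves no replicate to omit. Depth limits few statements, since every trough gene had at least 16 reads.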

Other observations

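Models outside the rule showed the same folds in 3 cases. Besides CH60, the numbered gene LOC105225710, which spans 194710 bases for 4823 exonic bases on NW_011876331.1, minus strand, 1024447 to 1219156, had FPKM of 12.9, 1.71 and 16.3 in order of age. It was 5.11-fold lower at 2-4 than at 0-1 hpo and 6.37-fold higher at 5-8 than at 2-4 hpo on FPKM + 1. An unnumbered single-exon model on NW_011875530.1, minus strand, 6135 to 9684, had FPKM of 13.8, 2.19 and 19.7 from 3347, 506 and 5241 reads.

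In the gene order of the reference assembly, not known to be the build of the files, 5 pairs of trough genes were next to each other among protein-coding genes. Of the 5 pairs found on the deposited scaffolds, 4 were neighbours there too; the fifth reference pair was LOC105229129 and LOC105229127, which are nested in the deposited coordinates with another model starting between them, and LOC105231735 and LOC105231736 were not adjacent.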
